A study of Homo sapiens with 35 samples.

Results

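The genes described here encode growth factors of the EGF family, the ligands of EGFR and its relatives ERBB3 and ERBB4. The 7 listed symbols were AREG, EREG, HBEGF, TGFA, BTC, EPGN and NRG1, and each was read from the probe set that carried this symbol alone and had the highest mean over all arrays. That gave 6 of the 7 ligands among 22384 measured genes. No probe set was named with AREG (amphiregulin), so it was not analysed here.

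The cells were SUM149, a triple-negative human breast cancer line of the inflammatory type. Polysome RNA, which is the RNA that ribosomes are translating, and total RNA were hybridised to Affymetrix arrays after vehicle (DMSO), IR, PP242, RAD001, PP242 with IR (PP242+IR) or RAD001 with IR (RAD001+IR). The 35 arrays formed 12 groups of 3, except PP242+IR total RNA with 2. PP242 blocks the kinase site of mTOR in both of its complexes, and RAD001 (everolimus) is a rapamycin analog that acts through mTORC1. Doses and times are not in the labels, which do not define IR either (read here as ionizing radiation), and all groups share 1 cell line. Epithelial markers were high (5 of 5 measured, means 12.01 to 14.65 on the log2 scale of the deposited values), while the hormone receptors ESR1 (4.33) and PGR (3.51) lay at and below the median of all probe sets (4.36). GATA3 (7.90) and FOXA1 (6.24), luminal transcription factors, were above it. Of 4 measured leukocyte markers, PTPRC (3.90) and LYZ (3.86) lay below that median, CD3E (5.01) just above it and CD68 (14.14), a lysosomal protein, near the top. The 4 endothelial markers were at 3.57 to 4.56 and 5 fibroblast markers at 3.91 to 5.15.

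EGF family ligands are made as membrane-bound precursors. Metalloproteases, above all ADAM17, cut them from the cell surface, and the freed ligand binds a receptor on the same or a neighbouring cell. The receptors signal through RAS and ERK to immediate early genes and through PI3K to AKT and mTOR, and ERK in turn raises the transcripts of several of the ligands. EREG, TGFA, HBEGF, BTC and EPGN bind EGFR, NRG1 binds ERBB3 and ERBB4, and EREG, HBEGF and BTC bind ERBB4 as well. Self-stimulation through EGFR by amphiregulin is a known trait of SUM149 cells.

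EPGN, EREG, AREG and BTC follow each other in this order among the protein-coding genes of chromosome 4, between MTHFD2L and PARM1. HBEGF lies on chromosome 5 and TGFA on chromosome 2. The 3 ligands with the widest range of group means are shown with the 250 bases before their start (RefSeq, build GRCh38.p14), since EREG and EPGN are neighbours and HBEGF was the 1 ligand that passed an adjusted p under 0.05 in any setting tried. The stretches are chr4:74364895-74365144 on the plus strand for EREG, chr5:140346604-140346853 on the minus strand for HBEGF and chr4:74308220-74308469 on the plus strand for EPGN. Capitals mark matches, on either strand, to any of the searched motifs. These were the TATA box (TATAAA), the CCAAT box, the SP1 motif (GGGCGG), the AP-1 motif (TGANTCA), the cAMP response element (TGACGTCA), the E-box (CACGTG), the FOXO motif (GTAAACA) and the TEAD motif (GGAATG).
EREG: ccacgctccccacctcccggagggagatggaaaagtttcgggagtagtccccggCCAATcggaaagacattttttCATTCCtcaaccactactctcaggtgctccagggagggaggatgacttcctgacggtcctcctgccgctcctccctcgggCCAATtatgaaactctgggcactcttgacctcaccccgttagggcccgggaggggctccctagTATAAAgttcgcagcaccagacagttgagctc
HBEGF: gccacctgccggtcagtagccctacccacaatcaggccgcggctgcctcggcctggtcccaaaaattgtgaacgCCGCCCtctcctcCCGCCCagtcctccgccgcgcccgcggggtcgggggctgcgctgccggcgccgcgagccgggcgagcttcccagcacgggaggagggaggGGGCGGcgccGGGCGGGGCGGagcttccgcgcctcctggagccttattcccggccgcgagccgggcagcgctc
EPGN: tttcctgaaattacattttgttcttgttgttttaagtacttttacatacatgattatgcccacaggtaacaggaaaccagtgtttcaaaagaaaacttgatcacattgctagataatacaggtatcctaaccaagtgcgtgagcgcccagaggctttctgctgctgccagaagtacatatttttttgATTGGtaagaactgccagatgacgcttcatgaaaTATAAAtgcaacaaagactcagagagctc
The neighbours EREG and EPGN both held TATAAA, 32 and 29 bases before the start, a motif found in 10.7% of 35116 promoter stretches of this length. Both also held CCAAT (32% of promoters), at 196 and 95 bases in EREG and at 63 bases in EPGN. EREG had 1 GGAATG match at 175 bases (11.9% of promoters). HBEGF had neither TATAAA nor CCAAT but 5 matches to GGGCGG (42.6% of promoters), 2 of them overlapping each other. GC content was 76.4% in HBEGF, 58% in EREG and 38% in EPGN, beside a median of 58% over all promoters. None of the 3 stretches held the AP-1 motif (6.57% of promoters), the cAMP response element (1.65%), the E-box (6.34%) or the FOXO motif (2.98%). A match describes the letters and is not evidence of binding.

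EREG (epiregulin, probe set TC04000414.hg.1) had the highest signal of the 6 ligands, with a mean of 10.07 over the 35 arrays, above 93.9% of all probe sets. EPGN (epigen, TC04000413.hg.1) followed in signal at 8.29 (88.8%), TGFA (transforming growth factor alpha, TC02001963.hg.1) at 7.31 (84.8%) and HBEGF (heparin-binding EGF-like growth factor, TC05001854.hg.1) at 7.02 (83.4%). NRG1 (neuregulin 1, TC08000250.hg.1) at 5.90 (76.1%) and BTC (betacellulin, TC04001292.hg.1) at 5.09 (67.6%) were lower. These signals come from different probes and do not rank transcript abundance. A further NRG1 probe set had a mean of 3.65. EGF and the neuregulins NRG2, NRG3 and NRG4 had means of 3.81, 4.62, 3.89 and 4.46, against a median of 4.36 over all probe sets. EGFR was at 12.96, ERBB3 at 6.74, ERBB4 at 3.96 and ADAM17 at 11.03.

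Before the comparisons, 8 arrays stand out. They are replicate 3 of every inhibitor group, polysome and total, except that in PP242+IR total RNA it is replicate 2. Their mean over the MCM2 to MCM7 genes (6 of 6 measured), the replicative helicase, was 8.29 to 9.03, against 9.53 to 11.4 in the remaining 27 arrays. Their mean over sterol synthesis genes (4 of 6 measured) was 11.99 to 12.97, against 9.77 to 11.09. EREG lay between 11.73 and 12.73 in the 8 arrays and between 8.46 and 11.12 in the others, without overlap. HBEGF lay at 7.37 to 9.24 against 5.55 to 8.56, and NRG1 at 5.28 to 5.59 against 5.49 to 6.80, with overlap. TGFA (7.12 to 7.44) and BTC (4.97 to 5.33) stayed within the range of the remaining arrays, and so did EPGN (8.05 to 8.98). These 8 arrays are not a group of the study, so the ranges carry no test. The rule that picked them is not given here, so the helicase and sterol ranges only describe them. The share of all genes that separate these arrays from the others was not computed. Of 168 ligand differences in the fit described next, 17 had the opposite sign without these arrays, 10 of them differences of EREG or HBEGF between RAD001 or RAD001+IR and DMSO or IR in polysome or total RNA. The part of this state in the inhibitor results was not tested.

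**Figure D1:**
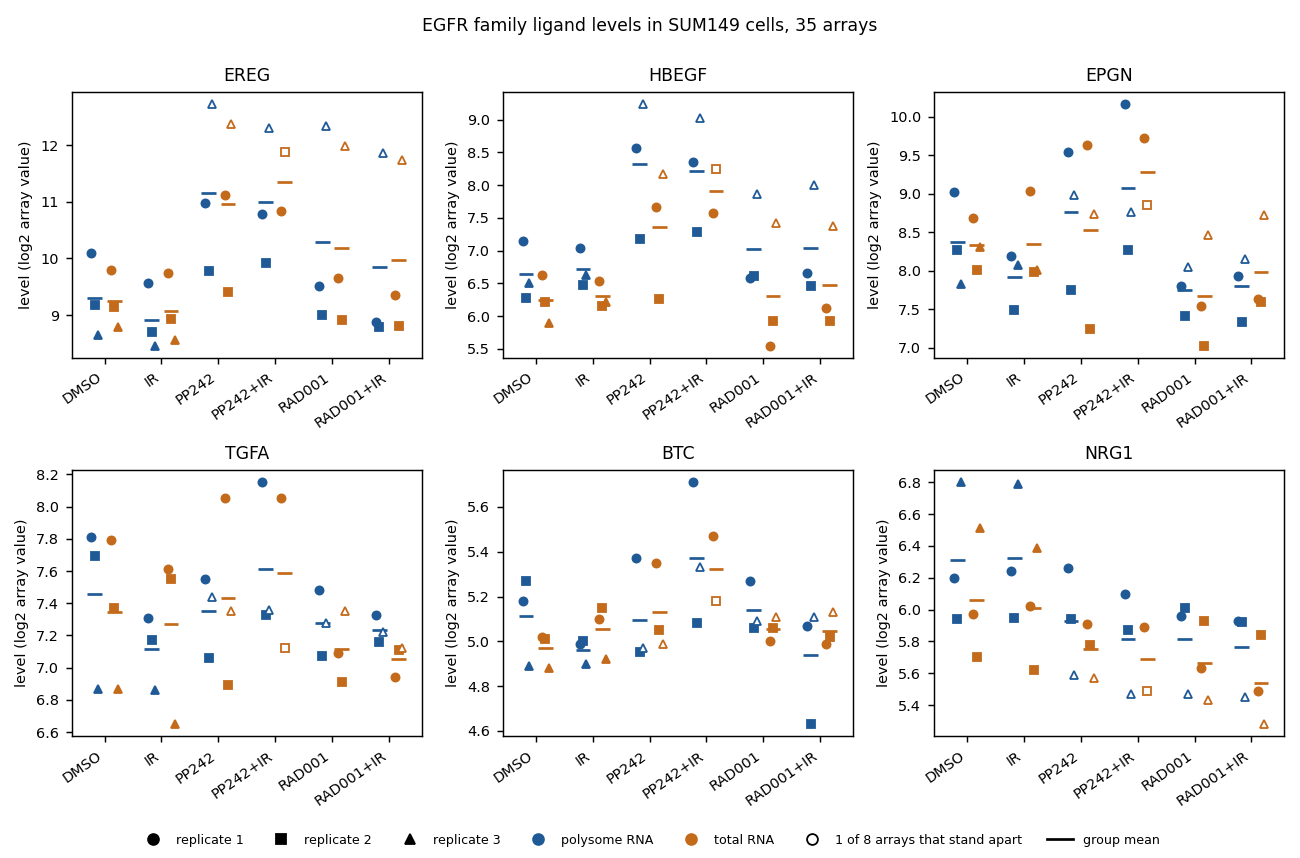
Level of each of the 6 measured ligands (vertical axis, log2 array value) in the 6 treatments, with 1 point per array, colours for the RNA fraction, shapes for the replicate number and bars for group means. Open symbols are the 8 arrays that stand apart, in which EREG lies at 11.73 or above while all other arrays lie at 11.12 or below. The share of all genes with such a separation was not computed.

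In the limma fit of all 35 arrays, none of the 6 ligands was called at an adjusted p under 0.05 in any of 28 comparisons (168 tests). Calls were rare throughout: polysome against total RNA in DMSO called 4.16% of all genes, and the other comparisons from 0% to 0.268%. An unadjusted p under 0.05 was reached by 16 of the ligand tests, beside 4.2% of the tests of all genes. These were 7 of HBEGF, 3 of BTC, 3 of EPGN, 2 of NRG1 and 1 of EREG, with none of TGFA. Below, ± after a level is the SD over the arrays of a group and ± after a log2 change is the standard error of the limma fit. Values in a list of 3 arrays follow the replicate numbers 1, 2 and 3.

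EREG is an EGFR and ERBB4 ligand with a low basal level in most adult tissues. In polysome RNA its level was 10.09, 9.17 and 8.65 in the DMSO arrays, 9.57, 8.70 and 8.46 after IR, 10.97, 9.77 and 12.73 after PP242 and 9.52, 9.0 and 12.33 after RAD001. It was 10.78, 9.92 and 12.31 after PP242+IR and 8.87, 8.79 and 11.86 after RAD001+IR. The high values of both inhibitors sit in replicate 3, and every inhibitor group overlapped the DMSO arrays. In total RNA, EREG was 9.80, 9.14 and 8.79 in DMSO, 9.75, 8.93 and 8.55 after IR, 11.12, 9.40 and 12.37 after PP242 and 9.66, 8.92 and 11.98 after RAD001. It was 10.84 and 11.87 after PP242+IR and 9.36, 8.81 and 11.73 after RAD001+IR. The order of the group means was the same in both fractions for RAD001, RAD001+IR, DMSO and IR, from high to low, and the 4 highest of the 12 means belonged to the groups with PP242. From 11.35 ± 0.73 (SD, n = 2, PP242+IR total) down to 8.91 ± 0.59 (SD, n = 3, IR polysome), no neighbours in the order of the 12 means differed by more than the larger of their SDs.

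PP242 left EREG at 11.16 ± 1.49 against 9.31 ± 0.73 (SD, n = 3 each) in DMSO polysome RNA. The log2 difference was 1.85 ± 0.99 (limma adjusted p = 0.673), and 1.07 without the 8 arrays (adjusted p = 0.568). Under RAD001 the difference was 0.98 ± 0.99, and -0.04 without the 8 arrays (limma adjusted p = 1.0 in both), so that its size rested on replicate 3. Replicate numbers are shared between the groups, although over all genes same-numbered inhibitor and DMSO arrays did not deviate together throughout (correlations from -0.22 to 0.51). Against DMSO of the same number, EREG in polysome RNA after PP242 was higher by 0.87, 0.60 and 4.08. After RAD001 the same differences were -0.57, -0.17 and 3.69. PP242 thus lay above DMSO in 3 of 3 replicates, as it did for 18.1% of all genes, and RAD001 in 1 of 3.

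HBEGF is shed by ADAM17 and other proteases and binds heparan sulfate. In polysome RNA its level was 7.14, 6.28 and 6.51 in DMSO, 7.04, 6.48 and 6.62 after IR, 8.56, 7.17 and 9.24 after PP242 and 6.58, 6.61 and 7.87 after RAD001. It was 8.35, 7.28 and 9.02 after PP242+IR and 6.66, 6.46 and 8.0 after RAD001+IR. All 6 polysome arrays with PP242 lay above all 6 DMSO and IR arrays of that fraction, by a narrow margin for replicate 2. The share of all genes with this joint arrangement was not computed. In total RNA, HBEGF was 6.63, 6.22 and 5.90 in DMSO, 6.54, 6.16 and 6.22 after IR, 7.67, 6.26 and 8.17 after PP242 and 5.55, 5.93 and 7.42 after RAD001. It was 7.58 and 8.24 after PP242+IR and 6.12, 5.93 and 7.37 after RAD001+IR. In total RNA, replicate 2 of PP242 lay within the range of the DMSO arrays. The order of the 12 means ran from PP242 polysome (8.33 ± 1.06) to DMSO total (6.25 ± 0.36; SD, n = 3 each), and no neighbours in it differed by more than the larger of their SDs.

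HBEGF was the ligand with the lowest p against DMSO. PP242 in polysome RNA gave a log2 difference of 1.68 ± 0.57 (limma adjusted p = 0.306), where 0.268% of all genes were called. Without the 8 arrays the difference was 1.22 ± 0.41 (adjusted p = 0.279). Leaving out each array in turn gave 1.22 to 2.26. With limma's array weights it was 1.63 ± 0.41 and called (adjusted p = 0.0219), beside 4.82% of all genes. The series' design text sets another threshold, a p under 0.05 with a log fold change over 1.5. Read as an unadjusted p and a log2 change, it was met by HBEGF here beside 0.13% of all genes. HBEGF was the only ligand of 6 whose PP242 polysome arrays all lay above the DMSO arrays, an arrangement that 8.69% of all genes had. In total RNA the difference was 1.12 ± 0.57 (adjusted p = 0.558, 0.125% of genes called), and 0.72 without the 8 arrays. Under RAD001 the differences were 0.37 ± 0.57 in polysome RNA and 0.05 ± 0.57 in total RNA (limma adjusted p = 1.0 and 0.995), and 0% of genes were called in either. Without the 8 arrays both turned sign, to -0.05 and -0.51. By replicate number, the polysome differences from DMSO were 1.42, 0.89 and 2.73 after PP242 and -0.56, 0.32 and 1.36 after RAD001.

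**Figure D2:**
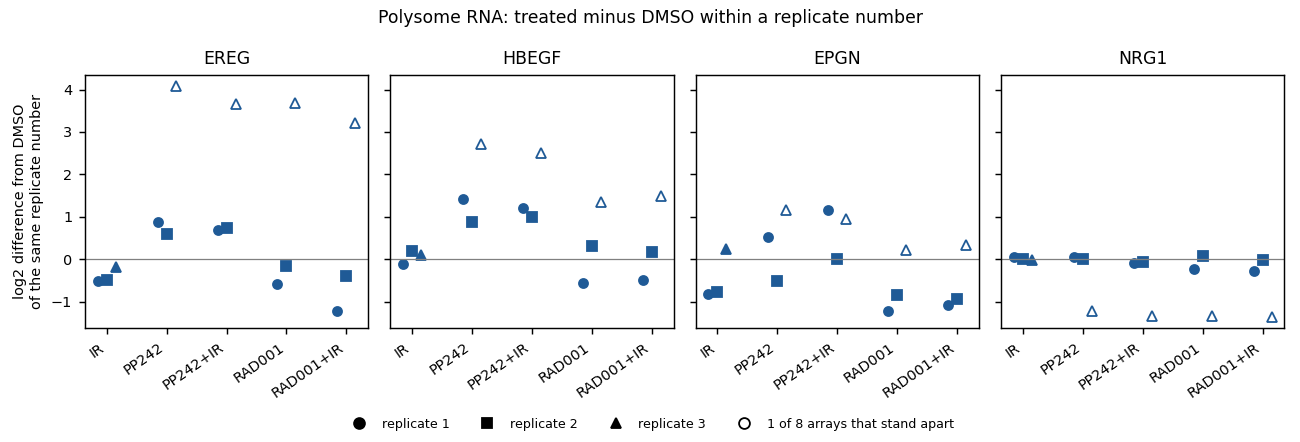
Treated minus DMSO polysome arrays of the same replicate number (vertical axis, log2 difference) for EREG, HBEGF, EPGN and NRG1, 1 point per replicate. HBEGF lies above 0 in all 3 replicates after PP242 (0.89 to 2.73). The open symbols, replicate 3 of the inhibitor groups, carry the EREG, HBEGF and NRG1 differences of largest size in each of these groups.

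EPGN is a low-affinity EGFR ligand. In polysome RNA its level was 9.02, 8.27 and 7.83 in DMSO, 8.19, 7.49 and 8.07 after IR, 9.55, 7.75 and 8.98 after PP242 and 7.80, 7.41 and 8.05 after RAD001. It was 10.17, 8.27 and 8.77 after PP242+IR and 7.93, 7.33 and 8.15 after RAD001+IR. The PP242 groups were the most spread and overlapped DMSO. In total RNA its mean was 9.29 ± 0.62 (n = 2) after PP242+IR, 8.53 ± 1.21 after PP242, 8.34 ± 0.61 after IR, 8.34 ± 0.34 in DMSO, 7.98 ± 0.64 after RAD001+IR and 7.68 ± 0.72 after RAD001 (SD, n = 3). Neighbours in this order differed by less than the larger of their SDs. Against DMSO in polysome RNA, the log2 difference of EPGN was 0.39 ± 0.54 after PP242 and -0.62 ± 0.54 after RAD001 (limma adjusted p = 0.965 and 1.0). RAD001 lay below DMSO of the same number in replicates 1 and 2 (-1.21 and -0.85) and above it in replicate 3 (0.22).

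TGFA, a classical EGFR ligand, varied little between the groups. Its mean in polysome RNA was 7.61 ± 0.46 after PP242+IR, 7.46 ± 0.51 in DMSO, 7.35 ± 0.26 after PP242, 7.28 ± 0.21 after RAD001, 7.24 ± 0.09 after RAD001+IR and 7.12 ± 0.23 after IR (SD, n = 3 each). In total RNA it was 7.59 ± 0.66 (n = 2) after PP242+IR, 7.43 ± 0.59 after PP242, 7.34 ± 0.46 in DMSO, 7.27 ± 0.54 after IR, 7.11 ± 0.22 after RAD001 and 7.06 ± 0.10 after RAD001+IR. The 12 means spanned 0.55, less than the range of the 3 DMSO polysome arrays, which were at 7.81, 7.69 and 6.87.

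BTC, which binds EGFR and ERBB4, was the dimmest. Its polysome means were 5.37 ± 0.32 after PP242+IR, 5.14 ± 0.11 after RAD001, 5.11 ± 0.20 in DMSO, 5.09 ± 0.24 after PP242, 4.97 ± 0.05 after IR and 4.94 ± 0.27 after RAD001+IR (SD, n = 3 each). In total RNA they were 5.32 ± 0.21 (n = 2) after PP242+IR, 5.13 ± 0.19 after PP242, 5.06 ± 0.05 after RAD001, 5.06 ± 0.12 after IR, 5.05 ± 0.07 after RAD001+IR and 4.97 ± 0.08 in DMSO. PP242+IR headed the order in both fractions, and of the neighbours among the 12 means 1 pair, RAD001+IR total (5.05 ± 0.07) and DMSO total (4.97 ± 0.08), differed by slightly more than the larger SD.

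NRG1 had its highest mean of either fraction in DMSO or IR. It acts through ERBB3 and ERBB4 and not through EGFR. In polysome RNA its level was 6.20, 5.94 and 6.80 in DMSO, 6.24, 5.95 and 6.79 after IR, 6.26, 5.94 and 5.59 after PP242 and 5.96, 6.01 and 5.47 after RAD001. It was 6.10, 5.87 and 5.47 after PP242+IR and 5.93, 5.92 and 5.45 after RAD001+IR. Replicate 3 was the highest of the DMSO and IR arrays and the lowest of every inhibitor group. In total RNA the means ran from 6.06 ± 0.41 in DMSO and 6.01 ± 0.38 after IR through 5.75 ± 0.17 after PP242, 5.69 ± 0.29 after PP242+IR (n = 2) and 5.66 ± 0.25 after RAD001 to 5.54 ± 0.28 after RAD001+IR (SD, n = 3). The lowest p of NRG1 was that of RAD001+IR against IR in polysome RNA, with a log2 difference of -0.56 ± 0.26 (limma adjusted p = 0.999). The 3 arrays of RAD001+IR lay just below the DMSO and the IR arrays of that fraction, an arrangement that 5.59% and 6.13% of all genes had. Against DMSO of the same replicate number, PP242 gave 0.06 in replicate 1 and -1.21 in replicate 3.

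IR alone gave no ligand call. In polysome RNA, IR minus DMSO was -0.52, -0.48 and -0.19 for EREG in the 3 replicates and -0.49, -0.52 and -0.01 for TGFA. The mean differences were -0.40 for EREG and -0.34 for TGFA, and limma called none of the 6 ligands and 0% of all genes in either fraction (0.809% of genes in polysome RNA had an unadjusted p under 0.05). HBEGF differed by 0.07 ± 0.57 in polysome RNA and NRG1 by 0.02 ± 0.26. IR on top of an inhibitor likewise gave no call and 0% of genes called. The largest such ligand difference, EPGN in total RNA with PP242, was 0.75 ± 0.61 (limma adjusted p = 0.894). Without the 8 arrays it was 1.29, but rested on 1 PP242+IR array at 9.72 against PP242 arrays at 9.63 and 7.24.

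PP242 with IR was compared with IR alone. In polysome RNA, 5 of the 6 ligands (all but NRG1) had every PP242+IR array above every IR array, an arrangement that 7.72% of all genes had. None was called, beside 0.13% of all genes. The log2 differences were 2.09 ± 0.99 for EREG, 1.50 ± 0.57 for HBEGF, 1.15 ± 0.54 for EPGN, 0.50 ± 0.31 for TGFA and 0.41 ± 0.15 for BTC (limma adjusted p from 0.511 for BTC to 1.0 for TGFA). Without the 8 arrays the first 3 were 1.44, 1.10 and 1.30. In total RNA, with 2 PP242+IR arrays, EREG, HBEGF and BTC did not overlap with IR (10.3% of genes had every PP242+IR array above), and HBEGF differed by 1.61 ± 0.64 (adjusted p = 0.799, 0.0268% of genes called). Against DMSO, PP242+IR gave HBEGF differences of 1.57 ± 0.57 in polysome RNA and 1.66 ± 0.64 in total RNA (limma adjusted p = 0.535 and 0.805, beside 0.0938% and 0.0268% of genes called). Wholly above DMSO lay HBEGF in polysome RNA (8.01% of genes) and EREG, HBEGF, BTC and EPGN in total RNA (11.2% of genes). At the threshold of the design text, which names the comparisons with DMSO and was applied to those with IR as well, HBEGF passed in each of these 4 comparisons and EREG in polysome RNA against IR. That threshold took in 0.112% and 0.214% of all genes against IR and 0.116% and 0.192% against DMSO, in polysome and total RNA. RAD001+IR against IR gave 0.33 ± 0.57 for HBEGF and -0.11 ± 0.54 for EPGN in polysome RNA, where 0% of genes were called. Without the 8 arrays these were -0.15 and -0.28. In total RNA, where no ligand was called either, RAD001+IR called 0.00447% of genes against IR and 0.00893% against DMSO.

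The inhibitors were then compared with each other. Within each replicate number, HBEGF, EREG and EPGN were higher with PP242 than with RAD001 in 3 of 3 polysome pairs and 3 of 3 total RNA pairs. Of all genes, 15.5% and 16.9% were higher in all 3 pairs, respectively. The polysome differences ran from 0.57 to 1.98 for HBEGF, from 0.40 to 1.45 for EREG and from 0.34 to 1.75 for EPGN. The total RNA differences ran from 0.34 to 2.12 for HBEGF, from 0.39 to 1.47 for EREG and from 0.21 to 2.08 for EPGN. With IR on both sides the same 3 ligands were again higher in 3 of 3 polysome pairs, by 0.82 to 1.69 for HBEGF, 0.44 to 1.91 for EREG and 0.62 to 2.24 for EPGN. TGFA, BTC and NRG1 did not share this without IR: their polysome differences ran from -0.01 to 0.16, from -0.12 to 0.10 and from -0.07 to 0.29. With IR, TGFA (0.15 to 0.82) and BTC (0.22 to 0.64) were higher in 3 of 3 pairs as well, so that 5 of the 6 ligands were, beside 12.3% of all genes. Over groups without regard to number, EPGN lay wholly above RAD001+IR in PP242+IR polysome RNA (2.99% of genes), and HBEGF, TGFA, BTC and EPGN did in total RNA (6.64%). PP242+IR total RNA holds only 2 arrays, 1 of them among the 8 that stand apart. For TGFA the groups all but met, at 7.12195 after PP242+IR and 7.12153 after RAD001+IR.

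**Figure D3:**
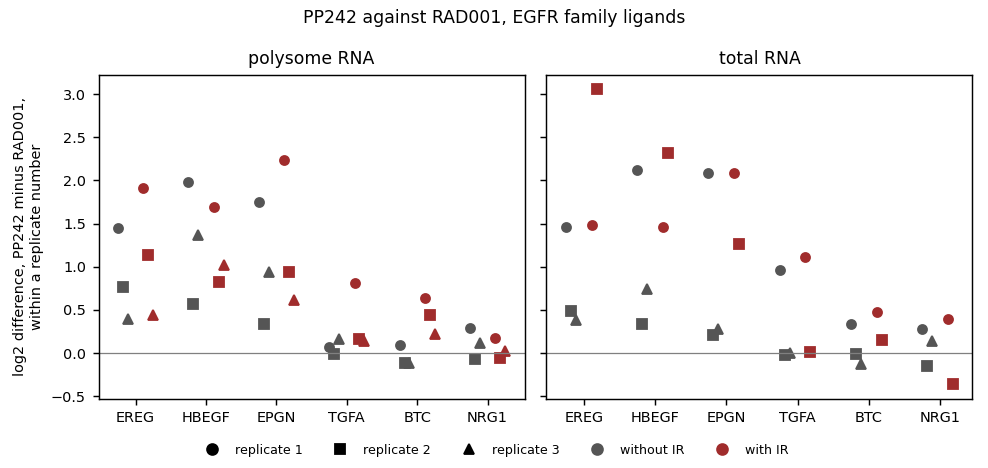
PP242 minus RAD001 arrays of the same replicate number (vertical axis, log2 difference) for each ligand, without IR in grey and with IR in red, in polysome and total RNA. HBEGF, EREG and EPGN lie above 0 in every pair, and the square with IR in total RNA pairs arrays whose numbers may not match.

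In polysome RNA, deviations of same-numbered PP242 and RAD001 arrays from their group means correlated at 0.53 to 0.81 over all genes. Replicate 3 of each inhibitor group here is 1 of the 8 arrays, and deviations from a mean of 3 arrays are not independent. The check thus cannot show whether numbers 1 and 2 are paired. A limma fit with the replicate number as a block, chosen after this check, used the 12 inhibitor arrays of polysome RNA. In it HBEGF was higher with PP242 than with RAD001 by 1.30 ± 0.23 on the log2 scale (adjusted p = 0.0260), the 1 ligand of 6 called, beside 2.12% of all genes (474). Without the block the same difference had a standard error of 0.57 and an adjusted p of 1.0 (0.0268% of genes called). The call did not outlast the loss of any 1 replicate number: the difference was 0.97 without number 1 (adjusted p = 0.176), 1.67 without number 2 (0.0583) and 1.27 without number 3 (0.193). EREG differed by 0.87 ± 0.26 (limma adjusted p = 0.137) and EPGN by 1.01 ± 0.31 (0.146). With IR on both sides, where 0.987% of genes were called, HBEGF differed by 1.17 ± 0.23 (0.0523), EREG by 1.16 ± 0.26 (0.0847), EPGN by 1.26 ± 0.31 (0.106) and BTC by 0.44 ± 0.11 (0.107). The blocked fit of total RNA gave 1.07 ± 0.31 for HBEGF and 0.78 ± 0.24 for EREG (limma adjusted p = 0.985 for both). Without a block, no ligand was called between the inhibitors, beside 0.00447% of genes in total RNA without IR and 0.00447% in polysome RNA with IR. Whether the inhibitors were matched in dose and time is not given in the sources used here.

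Transcripts that ERK induces downstream of EGFR were compared between the inhibitors in the same blocked polysome fit. Of 19 measured genes of this list, 5 were higher and 1 lower with PP242 than with RAD001, beside 2.12% of all genes called. The other 13 did not pass, and the median difference of the list was 0.41 against -0.01 over all genes. DUSP5 and DUSP6, phosphatases that act on ERK, were higher by 1.05 ± 0.09 and 1.00 ± 0.11 (limma adjusted p = 0.0021 and 0.00422). PHLDA1 was higher by 0.95 ± 0.11, the AP-1 subunit FOSL1 by 0.72 ± 0.13 and MYC by 0.66 ± 0.10. CCND1 (cyclin D1), also an ERK target, was lower, with a difference of -0.87 ± 0.07 (adjusted p = 0.00178). DUSP6 in polysome RNA was at 8.40, 8.32 and 9.33 after PP242, 7.34, 7.58 and 8.13 after RAD001 and 7.87, 7.46 and 7.66 in DMSO. CCND1 was at 11.47, 11.39 and 10.58 after PP242, 12.28, 12.40 and 11.35 after RAD001 and 12.36, 12.28 and 12.11 in DMSO. The lowest DUSP6 value after PP242 was 8.32 and the highest after RAD001 was 8.13, while CCND1 overlapped through replicate 3 of RAD001. The share of all genes without overlap between these groups is not given here, and these levels were picked after they were seen.

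With IR on both sides the same 6 of 19 genes were called in the same direction, beside 0.987% of all genes (median of the list 0.45), among them DUSP6 at 1.26 ± 0.11 (limma adjusted p = 0.0014) and CCND1 at -0.62 ± 0.07 (0.00757). When a replicate number was left out, 0 of these 6 calls remained without IR. With IR 1 remained without number 1 (DUSP6), 1 without number 2 (DUSP6) and 0 without number 3. The other lists of the pathway held no call in the blocked fit: receptors (3 measured), the remaining ligands EGF and NRG2 to NRG4 (4), ligand release and transport (11), receptor brakes and turnover (14) and adaptors and kinases (13). The lowest adjusted p among the receptors and brakes without IR was that of ERRFI1, an inhibitor of EGFR, at -0.54 ± 0.14 (limma adjusted p = 0.0904), followed by SOCS5 at -0.33 ± 0.09 (0.0941). EGFR itself differed by 0.40 ± 0.12 (0.142).

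**Figure D4:**
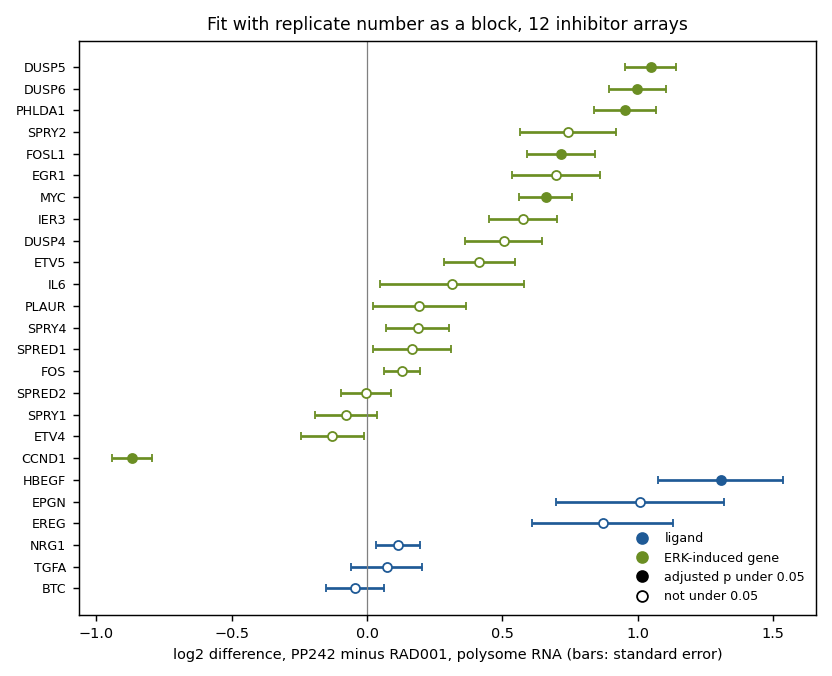
PP242 minus RAD001 in polysome RNA (horizontal axis, log2 difference with standard error) for 19 ERK-induced genes in green and the 6 ligands in blue, from the limma fit with the replicate number as a block over 12 arrays. Filled points have an adjusted p under 0.05: HBEGF at 1.30, 5 ERK-induced genes between 0.66 and 1.05, and CCND1 at -0.87.

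In the fit of all arrays without the block, the median of the ERK-induced list against DMSO in polysome RNA was 0.40 after PP242 (14 of 19 above 0), -0.03 after RAD001 and -0.16 after IR (2 of 19 above 0), against 0.01, 0.01 and 0.00 over all genes. No member was called in these. The lowest p values after PP242 belonged to ETV5, an ETS factor downstream of ERK, at 0.53 ± 0.15 (limma adjusted p = 0.175) and CCND1 at -1.11 ± 0.34 (0.222). EGFR differed by 0.50 ± 0.22 (0.493) and ADAM17 by 0.46 ± 0.25 (0.683).

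The last comparison set polysome RNA against total RNA. In DMSO, limma called 4.16% of all genes and none of the 6 ligands, whose differences ran from 0.03 ± 0.54 (EPGN) to 0.39 ± 0.57 (HBEGF). Proteins that prepare or release ligands were among the called genes: ADAM15 (0.75 ± 0.18), the furin protease FURIN (0.79 ± 0.20) and RHBDF2 (0.38 ± 0.10), a rhomboid-like partner of ADAM17, were higher in polysome RNA (3 of 11 of that list, 0 lower). NRG4 was lower, at 4.27 against 4.68, with a difference of -0.41 ± 0.09 (limma adjusted p = 0.0123). Both levels lay near the median of all probe sets (4.36), and without a detection call its level over background is unknown. Also higher in polysome RNA was CBL, a ubiquitin ligase of EGFR (0.67; 1 of 14 receptor brakes). The adaptor SHC1 (0.81) and the ERK kinase MAPK3 (0.62) were called among 13 adaptors and kinases, and the ETS factors ETV4 (0.97) and ETV5 (0.69) among 19 ERK-induced genes. The lists of release, brake, adaptor and ERK-induced genes held no lower call, and 0 of 3 receptors were called. How all called genes split into higher and lower is not given here, so the direction cannot be read as a trait of these lists. By replicate number, polysome minus total RNA of HBEGF was 0.39 ± 0.29 in DMSO, 0.41 ± 0.08 after IR, 0.96 ± 0.10 after PP242, 0.72 ± 0.29 after RAD001 and 0.57 ± 0.05 after RAD001+IR (SD, n = 3 each), and above 0 in all 15 of these pairs, as for 11.1% of all genes. The PP242 pairs lay at 0.89 to 1.08, above the DMSO pairs at 0.06 to 0.61, an arrangement that 2.05% of all genes had. As a change in translational efficiency (the polysome change minus the total RNA change against DMSO), PP242 gave 0.56 ± 0.81 for HBEGF (limma adjusted p = 1.0), beside 0% of genes called. NRG1 was above 0 in all 17 pairs, as were 9.73% of all genes, at 0.25 ± 0.03 (SD, n = 3) in DMSO, and EREG in 7 of 17. Over all genes, correlations between the deviations of same-numbered polysome and total arrays ran from -0.35 to 0.69. Within DMSO (-0.08 to 0.37) and IR (-0.04 to 0.02) these correlations were not above 0.1 in all 3 pairs. The numbered pairs of DMSO and IR may thus not be true pairs. In PP242+IR the numbered pairs of HBEGF were -0.96 and 0.77, and those of EREG -1.95 and -0.06. Here the total RNA array numbered 2 is 1 of the 8 arrays and the polysome array numbered 2 is not, so these pairs may not match.

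**Figure D5:**
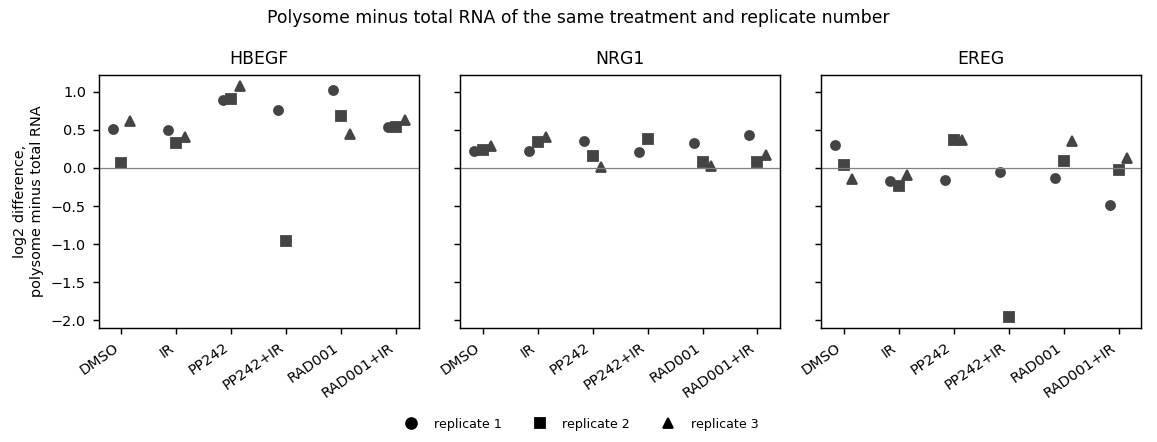
Polysome minus total RNA of the same treatment and replicate number (vertical axis, log2 difference) for HBEGF, NRG1 and EREG, 1 point per pair. HBEGF pairs after PP242 lie at 0.89 to 1.08 and those in DMSO at 0.06 to 0.61, and the square at PP242+IR pairs arrays whose numbers may not match.

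The DMSO and IR arrays, 4 of each replicate number, also varied by number. EREG lay at 9.57 to 10.09 in number 1, 8.70 to 9.17 in number 2 and 8.46 to 8.79 in number 3. Its number 1 did not overlap the others, an arrangement whose share of all genes was not computed. NRG1 lay at 5.97 to 6.24, 5.62 to 5.95 and 6.39 to 6.80.

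Genes whose 12 centred group means ran closest to a ligand were sought for the 3 ligands whose means spanned at least 1 log2 unit, by the root mean square of the differences over the 12 groups. Closest to EREG were ITGA2 (0.08), an integrin subunit that binds collagen, TM4SF1 (0.17) and NR4A2 (0.20), an orphan nuclear receptor. ITGA2 had a mean of 8.91 in DMSO, 10.86 after PP242 and 9.74 after RAD001 in polysome RNA, beside 9.31, 11.16 and 10.29 of EREG. Closest to HBEGF were the zinc finger factor KLF6 (0.12), the inositol trisphosphate kinase ITPKC (0.12) and NT5DC3 (0.15). Closest to EPGN were the stress gene GADD45A (0.16), FAM110C (0.22) and IFRD1 (0.22). Among these 3 ligands the closest pair was EREG and HBEGF, at 0.46.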

How the data were processed

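The authors deposited 1 table of log2 values for 65029 probe sets on 35 arrays. The log base was inferred from the values (1.85 to 19.92, array medians 4.19 to 4.84). How they corrected background and normalized is not given in the sources used here. Growth and extraction text in the labels describes mouse forelimbs, at odds with a human line, and was not used. Titles call the replicates biological without naming separate cultures, so the p-values cover the spread among these arrays, part of which may be technical. The number of arrays limits the precision.

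The platform annotation gave 1 symbol to 23077 probe sets, several to 1357 and none to 40595. For each symbol the brightest probe set on average was used (22384 genes). The members and lists were chosen with earlier results of these data known. All arrays entered 1 limma 3.58.1 fit of 12 group means (R 4.3.3; 23 residual and 2.69 prior degrees of freedom). The 28 comparisons were 15 against DMSO (5 treatments in each fraction and as translational efficiency, an interaction term), 12 between treatments and polysome against total RNA in DMSO. Calls needed a Benjamini-Hochberg adjusted p under 0.05 over all genes. The code was tested on simulated data. All measured ligands are named. Of each list, up to 3 called members each way are named or, with none called, up to 2 of lowest p, and for ligands whose group means span 1 log2 unit the 3 nearest genes. FOSL1, MYC, EGFR, ADAM17 and the levels of DUSP6 and CCND1 were added after their values were seen.

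Replicate numbers come from the titles. They were taken to pair groups where deviations of same-numbered arrays from their group means correlated above 0.1 in all 3 pairs. That held between PP242 and RAD001 (0.53 to 0.81 in polysome, 0.47 to 0.71 in total RNA), between PP242+IR and RAD001+IR (0.50 to 0.82) and between IR and DMSO (0.12 to 0.33) in polysome RNA. It also held between an inhibitor with and without IR (0.45 to 0.87), except PP242 in total RNA, and the block added no call there. Between polysome and total RNA it held within PP242 (0.23 to 0.60), RAD001 (0.21 to 0.64) and RAD001+IR (0.36 to 0.69), but not within DMSO or IR. Blocked fits used 12 inhibitor arrays of polysome RNA (6 residual degrees of freedom) and 9 of total RNA (4), leaving out PP242+IR total RNA. Alternatives were quantile normalization, a filter on low levels, only the groups compared, a replicate block, array weights, an intensity trend, the mean of a gene's probe sets, each array left out and the threshold of the design text. Leaving out the 8 arrays, and blocks within treatment, inhibitor groups or groups compared, were added with results known. Promoters are RefSeq's (GRCh38.p14), matched by symbol for 5 of the 6 measured ligands.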

Additional observations from a re-analysis of the deposited data

How the results depend on the processing

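Of 458 counts of called ligands under the alternatives, 451 did not differ from the values given above. The count rose from 0 to 1 with array weights (PP242 against DMSO, polysome RNA). At the threshold of the design text it was 1 for PP242 against DMSO in polysome RNA, 1 for PP242+IR against DMSO in polysome and 1 in total RNA, 2 for PP242+IR against IR in polysome and 1 in total RNA. With the replicate number as a block over the inhibitor arrays it was 1 (HBEGF, PP242 against RAD001, polysome RNA). Leaving out any 1 array gave 0 called ligands throughout. The replicate block over all 35 arrays called 0 ligands, with HBEGF at 1.68 ± 0.44 for PP242 against DMSO in polysome RNA (limma adjusted p = 0.0745), and the replicate block changed no other ligand call. For the 16 ligand differences with an unadjusted p under 0.05, 222 values under alternatives were computed, of which 220 kept their direction without a call, 2 were called (HBEGF, with array weights and the block of inhibitor arrays) and 0 reversed. The filter on low levels, only the groups compared and the intensity trend leave a log2 change as it is, so they could not reverse it. The 16 were also chosen by their p, so the lack of reversals does not measure robustness. Over all 168 ligand differences, leaving out the 8 arrays turned the sign of 17, none of them among those 16. The number of all genes called for PP242 against DMSO in polysome RNA depended more on the setting: 60 in the fit of all arrays, 1079 with array weights, 174 with the replicate block, 29 at the threshold of the design text, 0 with only the groups compared and 7 to 32 with 1 array of these groups left out, the lowest without PP242 replicate 2. The causes were not tested. Pairing polysome with total RNA gave HBEGF under PP242 a translational efficiency change of 0.56 ± 0.31 (limma adjusted p = 1.0), and a block of the IR and DMSO polysome arrays gave EREG -0.40 ± 0.10 (adjusted p = 0.844). Quantile normalization moved group means by -0.19 to 0.20, by more than 1 SD in 1 group of TGFA and 4 of BTC out of 12. BTC, at a mean of 5.09, was the ligand nearest in signal to the median of all probe sets (4.36), and no detection call was used, so its level over background is unknown.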
